A study of Mus musculus with 4 samples.

Results

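The fatty acid uptake and lipoprotein lipase axis was examined in mouse epididymal adipose tissue as 8 genes: Lpl, Lmf1, Angptl4, Vldlr, Cd36, Slc27a1, Slc27a4 and Fabp4. They were chosen by symbol, for what their proteins are known to do, and all 8 were found among the 24421 genes of the deposited matrices and passed the filter on low values (at least 0.5 CPM, a read count per gene scaled by library size, in at least 2 libraries). Adipocytes store fatty acids that arrive in the blood as triglyceride inside lipoproteins. Lipoprotein lipase frees them at the capillary wall, where the endothelial protein GPIHBP1 holds the enzyme, and membrane transporters, acyl-CoA synthesis and cytosolic binding proteins carry them into the cell. The enzyme is made by the adipocyte, needs a chaperone to fold and is inactivated by angiopoietin-like proteins, so that its activity is set largely after transcription.

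RNA-seq with poly(A) selection and a directional kit was performed on whole epididymal adipose tissue, the visceral fat pad beside the epididymis, of male wild-type C57BL/6J mice under 2 feeding schedules. Ctrl mice (2 libraries) were put on high-fat diet (HFD) at the age of 10 weeks and received it without a break for 14 weeks. WC1 mice (2 libraries) began HFD at 8 weeks of age, stayed on it for 8 weeks, were moved to standard diet (SD) for 2 weeks to lose weight and returned to HFD for 6 weeks. Time on HFD therefore summed to 14 weeks in either group, and both ended at an age of 24 weeks. The labels do not say whether the libraries come from separate mice, and p-values measure only the spread between these samples. In whole tissue, a change in the number of cells of a type and a change in RNA per cell cannot be told apart. Defining adipocyte markers were present throughout (Adipoq 630.1 to 1944 CPM), and of 5 epididymis markers 4 were at 0 in every library, with Adam7 at up to 3.02 CPM in WC1 1.

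The question was whether expression of the uptake genes differed after a 2-week return to SD and 6 more weeks of HFD. The groups also differed in age at the start of HFD and in the length of the last unbroken HFD period. These differences cannot be told apart from the SD break. Of the 8 genes, Angptl4 and Vldlr were higher in WC1 at a limma adjusted p under 0.05, where 10.2% of all tested genes were called higher, and 0 were lower, where 7.71% were called lower. At an unadjusted p under 0.05 limma had 4 of the 8 genes higher (Angptl4, Vldlr, Fabp4 and Slc27a1) and 0 lower, where 18.9% of all tested genes were on each side. By edgeR 3 were higher and 0 lower, beside 10.5% and 7.14% of all genes, and by DESeq2 5 and 0, beside 15.1% and 12.3%. In the TPM matrix limma called 3 higher and 0 lower, beside 14.6% and 4.13%, and with the replicate number as a block 2 and 0, beside 12.5% and 10.6%. The median log2 fold change was 0.25 over the 8 genes and -0.02 over the 14106 genes tested. Both WC1 libraries lay above both Ctrl libraries in 5 of the 8 genes, where 32.7% of all tested genes did so, and below them in 3, where 36.6% did.

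**Figure D1:**
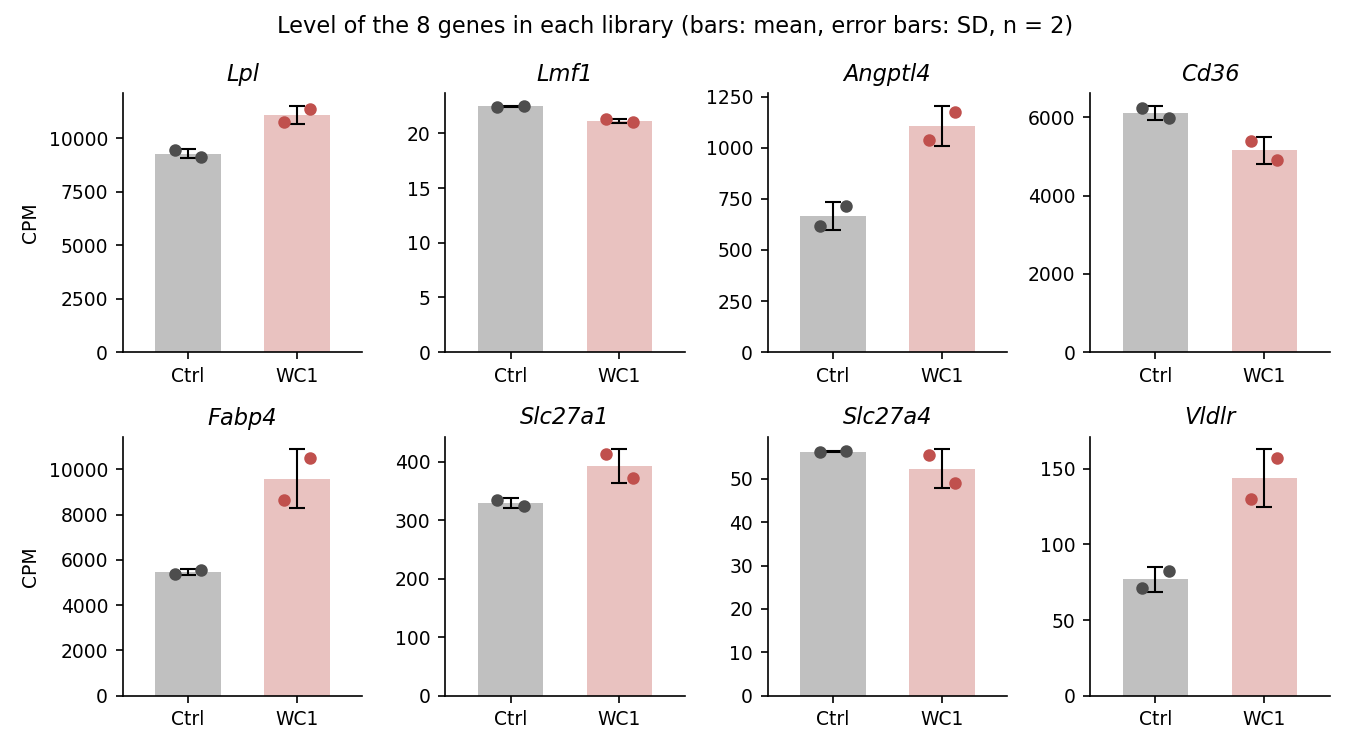
CPM of each of the 8 genes (vertical axes, each from 0) in Ctrl and WC1, with 1 point per library, bars for the mean and error bars for the SD of 2 libraries. The groups do not overlap in any of the 8 genes, with the WC1 points above in Lpl, Angptl4, Fabp4, Slc27a1 and Vldlr and below in Lmf1, Cd36 and Slc27a4.

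The genes lie apart in the genome (mm10). Slc27a1 (chr8:71568882-71587302) and Lpl (chr8:68880491-68907448) are on the plus strand of chromosome 8, and Lmf1 (chr17:25579085-25662826, plus strand) and Angptl4 (chr17:33773750-33781830, minus strand) on chromosome 17. Cd36 (chr5:17781690-17888801) and Fabp4 (chr3:10204088-10208576) are read from the minus strand, and Slc27a4 (chr2:29802634-29817522) and Vldlr (chr19:27216484-27254231) from the plus strand. In the GENCODE M21 annotation all 8 are protein-coding, and none shares exon sequence with an overlapping gene. Of the 50-base pieces of their transcripts, 1.40% in Lpl, 0.298% in Lmf1 and 1.43% in Slc27a1 also occurred in other genes and 0 in the other 5, which limits how far reads could have been split between copies.

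Upstream sequence is shown for members on both sides of the comparison: Vldlr and Slc27a1, where both WC1 libraries were above Ctrl, and Cd36 and Slc27a4, where both were below. Each window holds the 250 bases before a RefSeq transcription start (GRCm38.p6, the mm10 assembly) and no base of an annotated exon. RefSeq lists 3 starts for Slc27a1 and 2 for Vldlr, and windows that reach into exons were left out. Capitals mark, on either strand, the CCAAT box, the GC box GGGCGG, the TATA box TATAAA and AGGTCA, the core of nuclear receptor elements.
Vldlr, chr19:27216234-27216483, plus strand: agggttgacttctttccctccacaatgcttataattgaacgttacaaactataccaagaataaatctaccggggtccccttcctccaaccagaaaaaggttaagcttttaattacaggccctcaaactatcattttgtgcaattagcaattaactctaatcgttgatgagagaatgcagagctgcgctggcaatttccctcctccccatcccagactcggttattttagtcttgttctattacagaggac
Slc27a1, most upstream start, chr8:71568621-71568870, plus strand: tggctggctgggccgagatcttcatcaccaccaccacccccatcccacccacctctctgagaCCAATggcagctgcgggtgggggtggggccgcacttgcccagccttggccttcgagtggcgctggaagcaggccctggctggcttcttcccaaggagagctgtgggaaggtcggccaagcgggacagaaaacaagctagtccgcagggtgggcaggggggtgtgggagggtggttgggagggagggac
Slc27a1, most downstream start, chr8:71570344-71570593, plus strand: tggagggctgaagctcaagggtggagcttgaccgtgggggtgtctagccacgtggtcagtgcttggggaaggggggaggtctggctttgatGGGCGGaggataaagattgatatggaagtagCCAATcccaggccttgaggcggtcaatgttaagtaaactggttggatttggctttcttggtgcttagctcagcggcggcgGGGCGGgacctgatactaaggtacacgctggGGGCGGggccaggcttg
Slc27a4, chr2:29802384-29802633, plus strand: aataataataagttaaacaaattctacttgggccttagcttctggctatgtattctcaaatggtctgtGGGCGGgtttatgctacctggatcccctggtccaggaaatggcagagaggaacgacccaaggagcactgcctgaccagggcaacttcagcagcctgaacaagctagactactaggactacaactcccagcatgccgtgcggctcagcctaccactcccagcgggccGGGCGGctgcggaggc
Cd36, chr5:17835897-17836146, minus strand: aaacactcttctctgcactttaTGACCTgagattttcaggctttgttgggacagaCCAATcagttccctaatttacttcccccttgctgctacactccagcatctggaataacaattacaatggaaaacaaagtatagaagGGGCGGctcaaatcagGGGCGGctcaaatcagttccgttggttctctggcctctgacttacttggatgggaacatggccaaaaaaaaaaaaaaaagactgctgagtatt
The Vldlr window shown held none of these motifs. The window of the other Vldlr start, left out because it reaches into exons, held 1 CCAAT box and 1 GC box. The Slc27a1 windows shown held 1 CCAAT box each, and the downstream one also 3 GC boxes, while Slc27a4 held 2 GC boxes and no CCAAT box. The Slc27a1 window left out held 1 GC box and no CCAAT box. The Cd36 window held 1 CCAAT box, 2 GC boxes and 1 AGGTCA, read on the opposite strand. Among 32851 mouse windows of this length, 33.8% held CCAAT, 32.7% GGGCGG, 14.0% AGGTCA and 12.4% TATAAA. A direct repeat of AGGTCA spaced by 1 base, the DR1 element bound by PPAR and RXR, was in 0 of the member windows and in 0.0335% of all windows. The member windows covered 5 genes, without Lpl, Angptl4 and Fabp4, for which no window was available. A match describes letters only, and binding was not measured.

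Lipoprotein lipase itself, encoded by Lpl, was at 9430.2 and 9129.8 CPM in Ctrl 1 and Ctrl 2 and at 10770.4 and 11384 CPM in WC1 1 and WC1 2. Both WC1 libraries were above both Ctrl libraries, with means of 11077 ± 434 against 9280.0 ± 212 CPM (SD, n = 2 per group). The log2 fold change of 0.26 ± 0.32 (SE) did not pass the test (adjusted p = 0.59 in limma, 95% interval -0.56 to 1.07). That SE draws on the spread of other very abundant genes in limma's abundance trend, and the libraries of a group differed by 0.05 (Ctrl) and 0.08 (WC1) in log2 CPM of Lpl. On the recovered reads, between 644930 and 794446 per library, DESeq2 called Lpl higher (0.27, DESeq2 adjusted p = 0.023).

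Lmf1 encodes lipase maturation factor 1, the endoplasmic reticulum chaperone that lipoprotein lipase needs to reach its active fold. Lmf1 stood at 22.4 and 22.5 CPM in the Ctrl and 21.3 and 21.0 CPM in the WC1 libraries. Both WC1 libraries were the lower ones, by a log2 fold change of -0.083 ± 0.076 in CPM that became 0.052 in TPM (reads per transcript length) and did not pass the test (adjusted p = 0.46 in limma on CPM, 95% interval -0.28 to 0.11). TPM moved the median of all genes from -0.02 to 0.10, and relative to that median Lmf1 was at -0.064 in CPM and -0.050 in TPM.

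The inhibitor of the enzyme rose. Angptl4 encodes angiopoietin-like protein 4, which unfolds lipoprotein lipase and lowers its activity in fat during fasting, and it was at 619 and 713 CPM in the Ctrl and 1037 and 1176 CPM in the WC1 libraries. The lowest WC1 library was above the highest Ctrl library, and the ratio of the group means was 1.66. The log2 fold change was 0.73 ± 0.13 (SE, adjusted p = 0.029 in limma, 95% interval 0.39 to 1.07). Without the low-value filter, and so with 18132 genes tested, the limma adjusted p was 0.056.

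Vldlr had the largest log2 fold change of the 8 genes in CPM. It encodes the VLDL receptor, which binds triglyceride-rich lipoproteins together with lipoprotein lipase at the cell surface. Vldlr was at 71.1 and 82.7 CPM in the Ctrl and 130.3 and 157 CPM in the WC1 libraries, with no overlap, a ratio of means of 1.87 and a log2 fold change of 0.89 ± 0.13 (SE, adjusted p = 0.020 in limma, 95% interval 0.57 to 1.21). Leaving out a Ctrl library leaves that group with 1 sample, which is then assumed to vary like the WC1 pair, and limma called 2 (without Ctrl 1, 0.0142%) and 6 (without Ctrl 2, 0.0425%) of all 14106 genes higher. The limma adjusted p was then 0.16 and 0.099 for Vldlr and 0.28 and 0.17 for Angptl4, at log2 fold changes between 0.784 and 0.999 for Vldlr and between 0.63 and 0.83 for Angptl4.

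Cd36, on the other side of the comparison, encodes the membrane glycoprotein that binds long-chain fatty acids at the surface of adipocytes, capillary endothelium and macrophages. Cd36 stood at 6237 and 5977 CPM in the Ctrl and 5400.2 and 4909 CPM in the WC1 libraries. The WC1 libraries were the lower ones, with a ratio of means of 0.844 and a log2 fold change of -0.25 ± 0.24 that did not pass the test (adjusted p = 0.49 in limma, 95% interval -0.86 to 0.37). Libraries of a group differed by 0.06 (Ctrl) and 0.14 (WC1) in log2 CPM.

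The FATP transporters, which couple uptake to the activation of fatty acids to acyl-CoA, did not pass the test and lay on opposite sides. Slc27a1, encoding FATP1 of adipocytes and muscle, was at 335 and 323 CPM in the Ctrl and 412 and 371 CPM in the WC1 libraries. Both WC1 libraries were higher, with a log2 fold change of 0.25 ± 0.090 (adjusted p = 0.12 in limma, 95% interval 0.02 to 0.48). It was called by limma in the TPM matrix (0.39, adjusted p = 0.033) and by DESeq2 (0.27, adjusted p = 0.032). Slc27a4, encoding FATP4, was at 56.1 and 56.3 CPM in the Ctrl and 55.5 and 49.1 CPM in the WC1 libraries. Its log2 fold change was -0.11 ± 0.084 in CPM and 0.033 in TPM, and -0.086 and -0.069 relative to the median of all genes (adjusted p = 0.41 in limma on CPM, 95% interval -0.32 to 0.11). Without WC1 1 it was -0.19 and without WC1 2 -0.019, and neither was called (adjusted p = 0.094 and 0.89 in limma).

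Inside the cell, Fabp4 encodes the fatty acid binding protein of adipocytes and macrophages that carries fatty acids through the cytosol. It was at 5375 and 5561 CPM in the Ctrl and 8661 and 10499 CPM in the WC1 libraries. The WC1 libraries were above the Ctrl libraries, with a ratio of means of 1.75 and a log2 fold change of 0.80 ± 0.28. In limma Fabp4 did not pass the threshold over all genes (adjusted p = 0.11, 95% interval 0.08 to 1.52), while edgeR (adjusted p = 0.038) and DESeq2 (adjusted p = 7.26e-08) called it higher. As with Lpl and Cd36, the limma SE draws on other abundant genes, and the log2 difference between libraries was 0.05 within Ctrl and 0.28 within WC1.

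**Figure D2:**
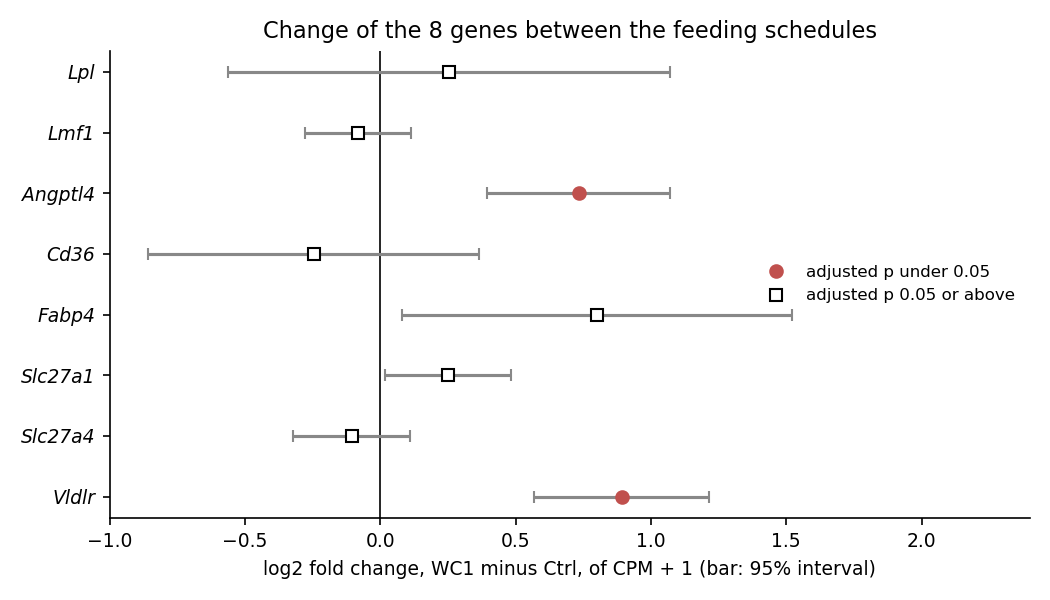
Log2 fold change of CPM + 1 (horizontal axis, WC1 minus Ctrl) for the 8 genes, with the 95% interval from limma as a bar and filled circles for an adjusted p under 0.05. The intervals of Vldlr and Angptl4 lie furthest from 0, those of Fabp4 and Slc27a1 end at 0.08 and 0.02, and those of Lpl, Lmf1, Cd36 and Slc27a4 include 0.

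Levels of different genes were set side by side per transcript length, in TPM. Fabp4 was the most abundant of the 8 at a mean of 24044 TPM, and it was second among all genes in both Ctrl libraries and first in both WC1 libraries. Lpl followed at 5099 TPM and Cd36 at 3244 TPM. Angptl4 (953 TPM) and Slc27a1 (261 TPM) were next, and each of these 5 was above the following gene in 4 of 4 libraries with ranges that did not overlap. Vldlr and Slc27a4 could not be ordered: both had a mean of 27.3 TPM, and Vldlr was below Slc27a4 in Ctrl (16.4 and 19.3 against 26.8 and 27.1 TPM) and above it in WC1 (32.8 and 40.8 against 28.9 and 26.4 TPM). Lmf1 (mean 23.6 TPM) was above Vldlr in both Ctrl libraries (23.0 and 23.3 TPM) and below the other 7 genes in both WC1 libraries (23.9 and 24.3 TPM). Together the 8 genes held 2.48% and 2.54% of all TPM in Ctrl and 3.85% and 4.60% in WC1. Without Fabp4 they held 0.879% and 0.868% in Ctrl and 1.03% and 1.08% in WC1, so most of the difference was Fabp4 messenger RNA.

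Members that act side by side were then compared within a library, for 4 pairs, as differences of log2(CPM + 1). Each pair differed between groups without overlap. For Lpl minus Cd36, Slc27a1 minus Slc27a4 and Fabp4 minus Cd36 this had to be so, since their members lay on opposite sides. Of single genes, 32.7% were higher and 36.6% lower without overlap. In addition, 2 against 2 libraries cannot reach p = 0.05: the smallest exact two-sided permutation p, 0.333, was the value of each pair and remained 0.333 after adjustment over the 4 pairs. Fabp4 minus Cd36 moved most, from -0.21 and -0.10 in Ctrl to 0.68 and 1.10 in WC1. Lpl minus Cd36, the enzyme against the transporter, went from 0.60 and 0.61 to 0.996 and 1.21. Angptl4 minus Lpl differed by 0.48, going from -3.93 and -3.68 to -3.38 and -3.27, and the TPM ratio of inhibitor to enzyme was 0.140 and 0.166 in Ctrl and 0.205 and 0.220 in WC1. Slc27a1 minus Slc27a4 went from 2.55 and 2.50 to 2.87 and 2.89.

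The other genes of the pathway were read from the same fit. Of 52 genes listed by role, 45 passed the filter, 10 were called higher and 3 lower in WC1 by limma, with a median log2 fold change of 0.060, beside the 10.2% and 7.71% called over all genes. Fabp6 was at 0 in every library, and Angptl8 was matched through its RefSeq synonym Gm6484. In GENCODE M21, exons of Apoc2 and Pcsk6 overlap predicted genes on the same strand (Gm44805 and Gm45213), and exons of Acsl1, Got2, Sorl1, Sort1 and Cebpa overlap predicted genes on the opposite strand. Whether reads were counted by strand is not stated, so the values of these 7 genes may include reads of their neighbours.

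Around the enzyme, 5 of 16 tested partners were called higher and 1 lower. Gpihbp1, the capillary anchor of lipoprotein lipase, was at 37.5 and 45.4 CPM in the Ctrl and 76.4 and 94.2 CPM in the WC1 libraries, a log2 fold change of 1.02 ± 0.14 (adjusted p = 0.020 in limma). Angptl8, encoding an angiopoietin-like protein of liver and fat that takes part in the inhibition of lipoprotein lipase, was higher as well, by 0.72 ± 0.17 on the log2 scale (adjusted p = 0.048 in limma). Angptl8 was at 8.60 and 7.78 CPM in the Ctrl and 12.0 and 16.5 CPM in the WC1 libraries, and its call was lost with median-of-ratios scaling and with a pseudocount of 5 (adjusted p = 0.051 and 0.053 in limma). Sort1 (0.40), which encodes the sorting receptor sortilin, the proprotein convertase gene Pcsk6 (0.57) and Hspg2 (0.75), the gene of the heparan sulphate proteoglycan perlecan, were also called higher on the log2 scale. The activator gene Apoc2, encoding the cofactor that lipoprotein lipase requires, fell by 1.40 ± 0.26 on the log2 scale (adjusted p = 0.031 in limma), from 5.29 and 3.79 CPM to 1.59 and 0.667 CPM. Apoe, an abundant macrophage and adipocyte apolipoprotein gene, was at 3295 and 3288 CPM in the Ctrl and 2489 and 2390.1 CPM in the WC1 libraries, without overlap and without passing the test (-0.43 ± 0.17, adjusted p = 0.13 in limma), although DESeq2 called it lower (adjusted p = 1.78e-05). Sel1l, which acts with Lmf1 on lipase maturation, and the heparan sulphate proteoglycan gene Sdc1 had overlapping groups, with log2 fold changes of -0.054 and -0.13 in CPM that were 0.084 and 0.0061 in TPM.

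Among 5 lipoprotein receptors besides Vldlr, Sorl1 was called higher and Lrp8 lower. Lrp8 encodes the ApoE receptor 2, the closest relative of the VLDL receptor, and was at 11.01 and 9.39 CPM in the Ctrl and 1.72 and 3.43 CPM in the WC1 libraries. Its log2 fold change was -1.69 ± 0.25 (adjusted p = 0.022 in limma), opposite in sign to that of Vldlr. Sorl1, a sorting receptor of the same LDL receptor family, was at 13.4 and 11.5 CPM in the Ctrl and 19.6 and 22.9 CPM in the WC1 libraries (0.72 ± 0.12, adjusted p = 0.026 in limma). Lrp1 (2316 and 2339 against 2031 and 1588 CPM) and Scarb1 (125 and 131 against 152 and 195 CPM), which encode a large endocytic receptor and the HDL receptor, did not overlap between groups and did not pass the test (adjusted p = 0.20 and 0.082 in limma). Scarb1 was called higher by DESeq2 (adjusted p = 0.018) and with the replicate number as a block (adjusted p = 0.040 in limma). Without WC1 1 limma called both, Lrp1 at -0.55 (adjusted p = 0.011) and Scarb1 (adjusted p = 0.0021), while without WC1 2 the log2 fold changes were -0.20 and 0.25 and neither was called.

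Of 6 tested transporter and CD36 trafficking genes, 0 were called higher by limma, with 2 at an unadjusted p under 0.05 (Slc27a3 and Lypla1), and 1 was lower. Got2, which encodes mitochondrial aspartate aminotransferase and has also been described as a plasma membrane fatty acid binding protein, fell by 0.44 ± 0.083 on the log2 scale (adjusted p = 0.031 in limma), from 83.9 and 83.5 CPM to 65.4 and 57.8 CPM. In the TPM matrix Got2 was not called (-0.30, adjusted p = 0.053 in limma). By edgeR 0 of these genes were called higher, while DESeq2 called Slc27a3 and limma on the TPM matrix called Slc27a3 and Lypla1. Among binding proteins, Dbi, the acyl-CoA binding protein gene, rose from 936 and 963 CPM to 1482 and 1650.1 CPM (0.72 ± 0.12, adjusted p = 0.027 in limma) and was the 1 of 5 tested called higher. Fabp7 was lower without overlap at 9.30 and 6.75 CPM in the Ctrl and 5.10 and 3.27 CPM in the WC1 libraries (-0.81 ± 0.23, adjusted p = 0.071 in limma), and it was called lower by DESeq2, with the replicate number as a block and without WC1 1. Fabp5, the other abundant family member in fat, had overlapping groups at 575 and 544 CPM in the Ctrl and 611 and 542 CPM in the WC1 libraries (0.041 ± 0.10, 95% interval -0.23 to 0.31, adjusted p = 0.80 in limma). Acsl1, the main acyl-CoA synthetase gene of adipocytes, rose from 815 and 891 CPM to 1391 and 1504 CPM (0.76 ± 0.12, adjusted p = 0.024 in limma), and the other 3 tested synthetase genes were not called.

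Of the 9 nuclear receptors and factors that control these genes, Pparg and Rxrg were called higher. Pparg, the master regulator of adipocyte genes, was at 67.2 and 67.8 CPM in the Ctrl and 85.3 and 95.1 CPM in the WC1 libraries (0.41 ± 0.079, adjusted p = 0.033 in limma). Its partner Rxrg was at 5.83 and 6.68 CPM in the Ctrl and 10.4 and 13.4 CPM in the WC1 libraries (0.82 ± 0.15, adjusted p = 0.030 in limma). Rxra and Cebpa did not pass the test, with log2 fold changes of 0.11 and 0.18 (adjusted p = 0.43 and 0.18 in limma). In the fits with 1 Ctrl library, in which limma called 2 and 6 of all genes higher and 4 and 6 (0.0284% and 0.0425%) lower, none of the 13 pathway genes was called and 13 of 13 had the same sign. Without a filter, where 4.35% of all genes were called higher and 2.93% lower, Gpihbp1 and Lrp8 were called.

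**Figure D3:**
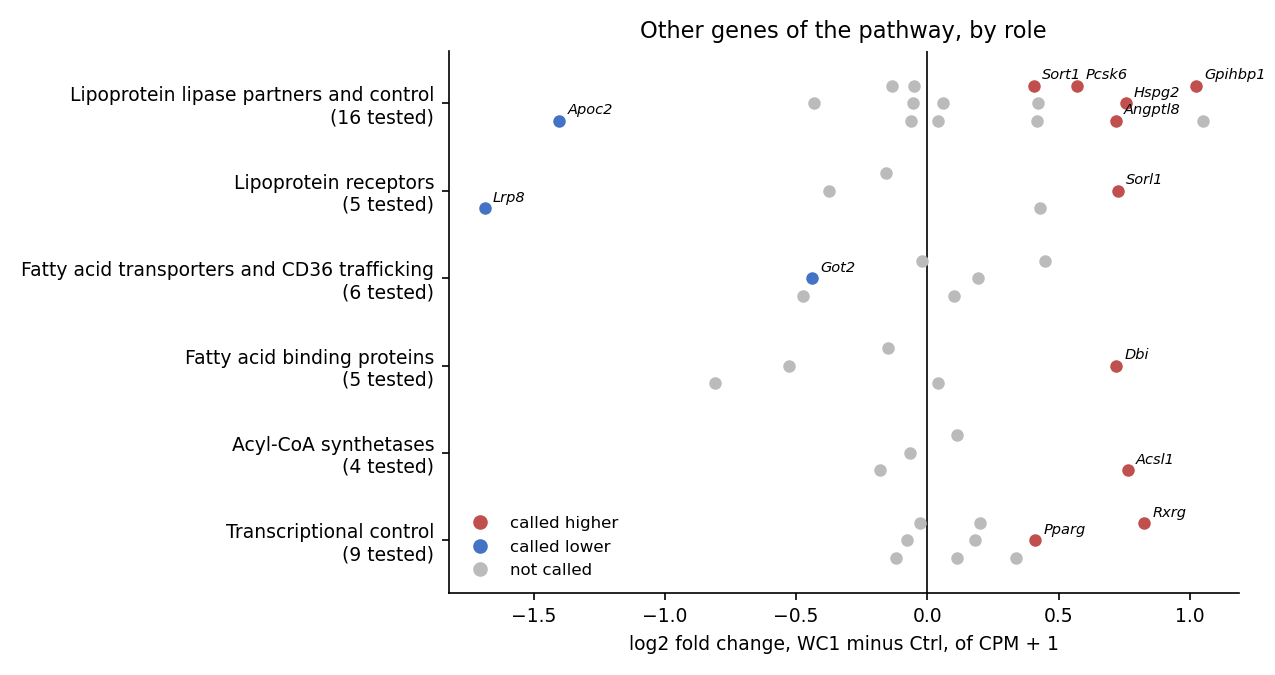
Log2 fold change of CPM + 1 (horizontal axis, WC1 minus Ctrl) of the 45 tested pathway genes, in rows by role, with called genes named and coloured by direction. Called genes lie between 0.40 and 1.02 on the higher side, and the called lower genes are Lrp8, Apoc2 and Got2.

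The cell type markers of the tissue moved in the same libraries. All 15 adipocyte markers were above Ctrl in both WC1 libraries, where 32.7% of all tested genes were. Of the 15 markers 13 were called higher, and their summed level was 6754 and 8215 CPM in the Ctrl and 13261 and 17458 CPM in the WC1 libraries. Of 10 endothelial markers 7 were called higher, with sums of 539.5 and 597 CPM in the Ctrl and 1079 and 1389.9 CPM in the WC1 libraries. Of 12 macrophage markers 7 were called lower, with sums of 13453 and 12404 CPM in the Ctrl and 8093 and 5782 CPM in the WC1 libraries. Of 8 fibroblast markers 3 were called lower (Pdgfra, Dcn and Lum), where 7.71% of all genes were, and Dpp4 (log2 fold change 0.27) was above Ctrl in both WC1 libraries without being called. The fibroblast markers had sums of 3392 and 3386 CPM in the Ctrl and 2801 and 2306 CPM in the WC1 libraries. Markers of mesothelium (0 of 6 called) and of T and B cells (0 of 7 called) set the WC1 libraries apart from each other: the mesothelial sums were 122 and 90.5 CPM in the Ctrl and 60.7 and 163 CPM in the WC1 libraries, and those of T and B cells 9.27 and 4.70 against 7.39 and 27.2 CPM. Without WC1 2, the library with the higher of these sums, limma called 4 of the 8 genes higher (Angptl4, Fabp4, Slc27a1 and Vldlr) and 0 lower, beside 10.1% and 8.73% of all genes. Lpl, Cd36, Fabp4, Apoe and Lrp1 are known to be expressed in macrophages as well as in adipocytes, and Cd36, Fabp4 and Gpihbp1 in capillary endothelium. The part of these cell types in the results of the 8 genes was not tested.

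The 8 genes were also set against the adipocyte markers of the same library. The mean log2(CPM + 1) of the 15 markers was 7.62 and 7.91 in Ctrl and 8.60 and 9.11 in WC1, 1.09 higher in WC1. The level of each of the 8 genes minus this mean was lower in both WC1 libraries than in both Ctrl libraries, as it was for 94.6% of all tested genes, so the direction is no feature of these 8. For Cd36 the difference went from 4.99 and 4.63 to 3.80 and 3.15, a change of -1.33, and for Slc27a4 and Lmf1 it changed by -1.19 and -1.17. Slc27a1 and Lpl changed by -0.84 and -0.83. Without WC1 1 these changes were -1.17 and -1.05, and without WC1 2 they were -0.51 and -0.62. The changes nearest to 0 were those of Vldlr (-0.20), Fabp4 (-0.29) and Angptl4 (-0.36). These sizes depended on single libraries, and with each left out in turn they ranged from -0.32 (without WC1 1) to -0.075 (without WC1 2) for Vldlr, from -0.41 (without Ctrl 2) to -0.16 (without Ctrl 1) for Fabp4, and from -0.52 (without WC1 1) to -0.19 (without WC1 2) for Angptl4. In each of the 8 genes the exact two-sided permutation p was 0.333, the smallest that 2 against 2 libraries allow. For Gpihbp1 the change was -0.07 and the groups overlapped (exact permutation p = 1). Its sign depended on a single library, at -0.17 without WC1 1 and 0.039 without WC1 2. For Pparg the change was -0.68.

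**Figure D4:**
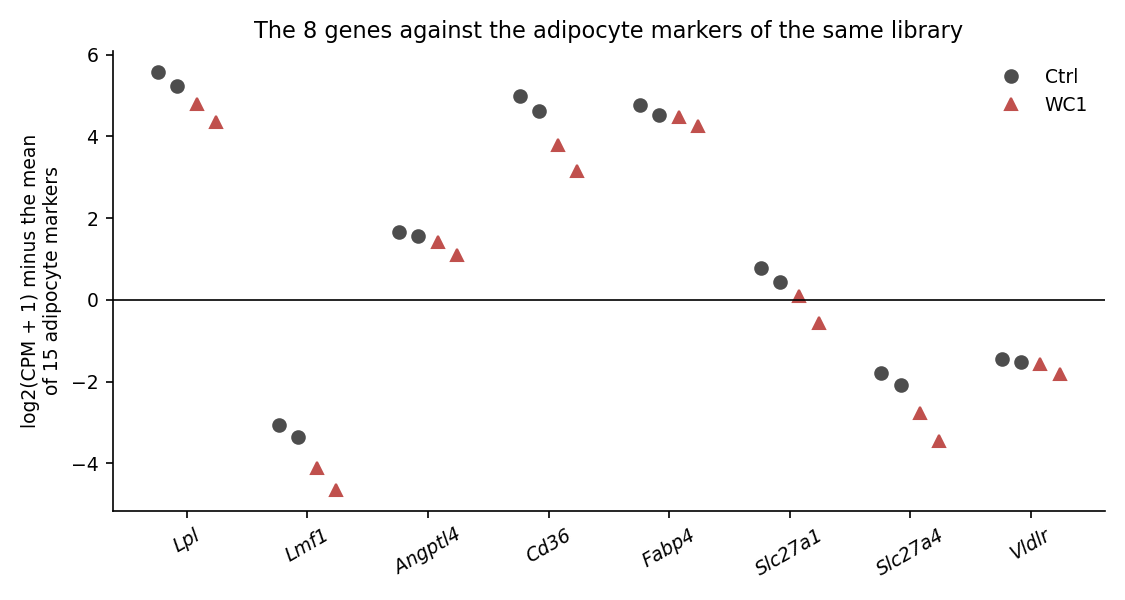
Level of the 8 genes relative to adipocytes (vertical axis: log2(CPM + 1) of the gene minus the mean of 15 adipocyte markers in the same library), with 1 symbol per library, circles for Ctrl and triangles for WC1. The triangles lie below the circles in each gene, by the smallest mean distance in Vldlr (a change of -0.20) and the largest in Cd36 (a change of -1.33).

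The genes closest in pattern to the enzyme, the inhibitor and the transporter were found by the distance of their centred log2(CPM + 1) values over the 4 libraries, among 12669 genes with a mean of at least 1 CPM. Closest to Lpl were Rnf123, Tmem126b and Gtf2i, at distances of up to 0.019. For Angptl4 they were Msrb3, Sipa1l1 and Prdm8, at up to 0.036, and for Cd36 Rpl6, Ccdc28a and Ube2z, at up to 0.0073. Among the members, Slc27a1 was nearest to Lpl (0.16), Fabp4 to Angptl4 (0.15) and Slc27a4 to Cd36 (0.15), while Lpl and Cd36 were 0.52 apart. Over all 12669 genes, however, Slc27a1 came only at place 1255 from Lpl, Fabp4 at 183 from Angptl4 and Slc27a4 at 1857 from Cd36.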

How the data were processed

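Poly(A) RNA of epididymal adipose tissue was sequenced in 4 libraries, 2 labelled high-fat control (Ctrl) and 2 weight-cycling (WC1). The submitters' processing notes name fastp, HISAT2, StringTie and mm10, without versions, and no annotation is stated in the sources used. The authors deposited a pair of gene matrices. One is named CPM, but its columns add up to 97.6% to 105% of what plain CPM would, so it is a deposited signal proportional to reads after rescaling of library sizes. Each value was a whole multiple of 1 read (100% within 0.01 read), and the recovered totals were 61465029 to 90965297 reads, at which 3 reads were 0.0345 to 0.0492 CPM. The other matrix holds TPM, which the authors corrected for transcript length.

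The filter of 0.5 CPM in at least 2 libraries kept 14106 genes and removed 10315. The log2(CPM + 1) values were fitted with limma 3.58.1 in R 4.3.3 (abundance trend, two-sided, Benjamini-Hochberg adjustment over all tested genes, threshold 0.05), which understates the fold changes of low genes. Single values were compared with exact permutation tests. Recovered reads were tested with edgeR 4.0.16 and DESeq2 1.42.0 as alternatives, after tests on simulated data. Further alternatives were the TPM matrix, other scaling, pseudocounts and filters, a replicate block and leaving out each library. Means are given with the SD of 2 libraries and fold changes with the SE of the model. The 8 genes and all lists were chosen with earlier results of these data known. A gene of the pathway list is not reported here. Named pathway genes were those called and the 8 most abundant not called. Outside this rule Fabp6, Fabp7, Slc27a3 and Lypla1 are also named. Coordinates follow GENCODE M21, and upstream windows RefSeq GRCm38.p6. The set of upstream windows used here held none for Lpl, Angptl4 and Fabp4.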

Additional observations from a re-analysis of the deposited data

How the results depend on the processing

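With 2 libraries per group the SE of 1 gene rests partly on the spread of other genes, and depth was no limit for the 8 genes, which had at least 1300 reads in each library. Against 2 members called higher in the report, 1 was called without the low-value filter (Vldlr, with 4.35% of all genes called higher), 5 by DESeq2 (Angptl4, Vldlr, Fabp4, Lpl and Slc27a1, with 15.1%), 3 by edgeR (10.5%) and 3 in TPM (14.6%). Leaving out each library in turn gave between 0 and 4 members higher: 0 without Ctrl 1 and without Ctrl 2 (0.0142% and 0.0425% of all genes), 3 without WC1 1 (17.2%) and 4 without WC1 2 (10.1%). No member was called lower by any of the 13 alternatives, although Cd36 had an unadjusted p under 0.05 by DESeq2 and Slc27a4 had one without WC1 1. Of the pathway genes, against 10 higher and 3 lower, 1 and 1 were called without the filter (4.35% and 2.93% of all genes) and 5 of 45 were lower by DESeq2 (12.3%). Leaving out a library gave between 0 and 14 pathway genes higher and between 0 and 8 lower, with 0 without Ctrl 1 or Ctrl 2 and 8 of 45 lower without WC1 1, where 19.5% of all genes were lower. Without WC1 1 limma also called Cebpa higher (0.25, adjusted p = 0.040) and Apoe (-0.46, 0.031) and Sdc1 (-0.45, 0.0072) lower, and Rxra lay between 0.0086 (without WC1 2) and 0.22 (without WC1 1). Signs reversed in TPM for Lmf1 (0.052), Slc27a4 (0.033), Sel1l (0.084) and Sdc1 (0.0061), and when a library was left out for Fabp5 (range -0.046 to 0.13, the lowest without WC1 1), Sel1l (-0.12 to 0.012) and Sdc1 (-0.45 to 0.18, the highest of both without WC1 2). Why these values moved was not tested.

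The labels name nothing that libraries with the same number have in common. Over 14106 genes the difference of library 1 minus 2 in Ctrl correlated with that in WC1 at r = 0.19, and the erythroid marker Hbb-bt was at 22.2 and 25.4 CPM in Ctrl 1 and WC1 1 and listed at 0 in Ctrl 2 and WC1 2, but 2 pairs cannot show a pairing. With the replicate number as a block, the same 2 members were called higher, Vldlr at a limma adjusted p of 0.0054 and Angptl4 at 0.015, with 12 pathway genes higher and 4 lower, beside 12.5% and 10.6% of all genes.

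The level of each of the 8 genes relative to the adipocyte markers was lower in WC1 than in Ctrl in each of the alternatives: the median marker, TPM and each library left out (the last added after seeing the data, as were those for the pairs). With a library left out the direction could not have changed, since the groups did not overlap in any of the 8 genes. In TPM and with each library left out the pair differences lay between 0.39 and 0.61 for Lpl minus Cd36, 0.33 and 0.38 for Slc27a1 minus Slc27a4, 0.35 and 0.60 for Angptl4 minus Lpl, and 0.84 and 1.26 for Fabp4 minus Cd36.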

Other observations

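Genes next to the uptake axis were also read from the fit, from lists written after the values above were known. Of 7 genes known from fatty acid transfer across the endothelium and its VEGF-B and apelin signals, 5 were higher in WC1 by limma, where 10.2% of all tested genes were. Aplnr, the apelin receptor gene, was at 27.8 and 27.1 CPM in the Ctrl and 69.9 and 84.8 CPM in the WC1 libraries (log2 fold change 1.45 ± 0.11, adjusted p = 0.0088 in limma). The transcription factor genes Meox2 (1.11) and Tcf15 (1.504), which promote fatty acid uptake in heart endothelium, Flt1 (1.18) and Apln (1.02) were higher on the log2 scale as well. Cd36 itself was not called, and Vegfb (0.24) and Nrp1 (-0.22) did not pass the test. As given above, 7 of 10 endothelial markers were higher in the same libraries, and their part here was not tested.

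Receptors for fatty acids and related metabolites were called higher in 4 of 4 tested genes by limma: Ffar2 (0.82), Ffar4 (0.55), Hcar1 (0.71) and Hcar2 (0.85), on the log2 scale, where 10.2% of all tested genes were called higher. The adipocyte markers moved in the same libraries (13 of 15 called higher, median log2 fold change 1.03), and their part here was not tested. Ffar4, the long-chain fatty acid receptor GPR120, was at 6.13 and 5.81 CPM in the Ctrl and 9.03 and 9.36 CPM in the WC1 libraries. Hcar1, the lactate receptor of adipocytes, was at 29.7 and 32.0 CPM in the Ctrl and 49.6 and 52.7 CPM in the WC1 libraries. The list's other 3 genes were below the filter, with Ffar3 at 0 in every library.

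Of 8 genes for CD36 ligands and partners, Thbs1 was higher (0.76 ± 0.17, adjusted p = 0.045 in limma), and Thbs4 and Lyn fell by 1.57 and 0.37 on the log2 scale (adjusted p = 0.020 and 0.039 in limma), beside 10.2% of all tested genes called higher and 7.71% lower. Thbs1 encodes thrombospondin 1, a CD36 ligand, and was at 150.1 and 196 CPM in the Ctrl and 327 and 259 CPM in the WC1 libraries. Among 4 further angiopoietin-like genes, Angptl1 was higher, at 5.15 and 5.56 CPM in the Ctrl and 9.57 and 10.3 CPM in the WC1 libraries, beside the same 10.2%. Angptl2 (0.23), Angptl6 (0.11) and Angptl7 (-0.70) were not called. The groups of each did not overlap, where 32.7% of all tested genes were higher without overlap and 36.6% lower.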
